A study of Homo sapiens with 24 samples.

Results

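The vehicle arrays of this series follow HepG2 cells through a day of culture with no active compound. They are the 10 DMSO arrays of 24, chosen by title alone: 3 taken at 1 h, 4 at 6 h and 3 at 24 h after vehicle was added. HepG2 is a line from a human liver cancer that still makes many hepatocyte proteins. All 10 arrays hold RNA of the same line, plated at 10000 cells per well, left overnight, and given medium with 0.25% DMSO and neither BRD8518 nor oncostatin M. The 14 treated arrays of the series were not used. The labels mention 6 wells for each treatment but leave unsaid whether the arrays of a group are from separate cultures. The p-values and intervals below speak of array-to-array spread alone, and that spread may be technical. The protocols name no medium change between the times, and whether one was made is not known here.

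Cells kept in a closed well can meet several changes over a day. Serum growth factors are used up, glucose and amino acids fall, and oxygen at the cell layer drops as density rises. Low oxygen stabilises the transcription factor HIF, which binds a short core motif and turns on genes for glycolysis, angiogenesis and cell survival. Lack of amino acids or protein folding trouble acts through the transcription factor ATF4, and growth factors act through the ERK kinases and their immediate-early genes. Vehicle arrays at several times show how far such programs differ with no compound present, which bears on what a control of another time would add to a comparison.

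In the main fit of all 10 arrays, with equal weights and no position term, no gene passed the test between any pair of times. Of 14884 genes, 0 (0.0% called) differed between 24 h and 1 h in limma at an adjusted p under 0.05, and 244 (1.64%) had an unadjusted p under 0.05. The same test called 0 genes (0.0%) between 6 h and 1 h, with 417 (2.8%) unadjusted. It called 0 (0.0%) between 24 h and 6 h, with 299 (2.01%) unadjusted. For 6 h against 1 h, weighting arrays by quality gave 1 gene. The position letter of the array titles as a random block gave 349, or 0 once the 6 h array D4 was left out as well. A moderated F test over the 3 times also called 0 genes, with 254 at an unadjusted p under 0.05. DDIT4, a stress gene that restrains the mTORC1 kinase, had the lowest p in the 24 h and 6 h comparisons with 1 h. Its level was 7.65 ± 0.07 at 1 h (SD, n = 3) and 8.32 ± 0.17 at 24 h (SD, n = 3), on the log2 scale of the deposited values.

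One array stood apart before any comparison was made. The 6 h array with position code D4 correlated with the other 9 arrays at a mean r of 0.977 over genes, against 0.993 to 0.994 for each of the others. Its median absolute deviation from the per-gene median of the 10 arrays was 0.241, against 0.0522 to 0.0870 for the others. It stood apart from the other 6 h arrays in 1753 genes (11.8%), 753 higher and 1000 lower, by Dixon's 95% criterion for a group of 4. The other 3 arrays of the group each stood apart in 81 to 101 genes. D4 also lends its spread to the fit, so the main comparisons are given with and without it. All 6 h arrays carry the letter D in their position code and no other vehicle array does, so time and letter cannot be told apart at 6 h. The 1 h arrays all carry B, the first and second 24 h arrays A and the third B. Within letter B, where 1 array stands for 24 h, the 24 h minus 1 h value of DDIT4 was 0.86 and that of ANKRD37 0.65, and with the letter as a fixed term 0 genes were called and 320 had an unadjusted p under 0.05. The labels do not state what the code means.

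**Figure D1:**
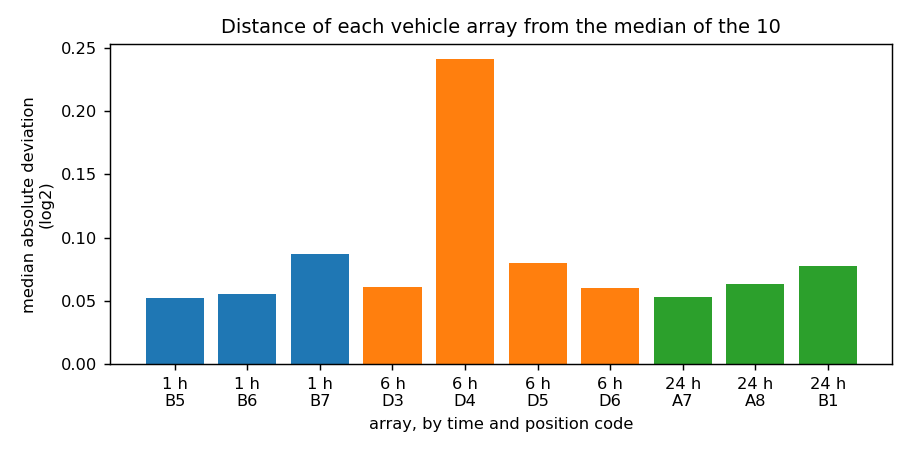
Each bar is 1 vehicle array, and its height is the median over genes of the absolute difference from the per-gene median of the 10 arrays (log2). Array D4 of the 6 h group stands at 0.241, and the other 9 lie between 0.0522 and 0.0870.

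Leaving out D4 narrowed the spread but made no call. The median standard error of the 24 h minus 1 h difference was 0.12 with all arrays and 0.09 without D4. Without it limma called 0 genes between 24 h and 1 h and 662 genes (4.45%) had an unadjusted p under 0.05, 406 higher and 256 lower at 24 h. The count between 6 h and 1 h was 0, with 685 (4.6%) unadjusted, and between 24 h and 6 h it was 0, with 554 (3.72%) unadjusted. The F test without D4 called 0 genes and gave 598 unadjusted. With array weights and D4 kept, 871 genes had an unadjusted p under 0.05 between 24 h and 1 h and 988 between 6 h and 1 h, and with the letter as a random block 601 and 3647.

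How large a difference these arrays could have held was read from the intervals. The 95% interval of the 24 h minus 1 h difference, taken gene by gene and not adjusted for the number of genes, excluded a 2-fold difference in both directions for 14844 genes (99.7%) and a 1.5-fold difference for 13899 (93.4%). Without D4 the counts were 14876 (99.9%) and 14578 (97.9%). These intervals rest on the spread between arrays, and spread between separate cultures may not be in them. The median absolute difference was 0.06 on the log2 scale and its 99th percentile 0.32. By value, 0 genes differed by 2-fold or more and 4 by 1.5-fold or more. The median of all genes was 0.01, and 8338 genes (56.0%) were higher at 24 h by value. RMA values carry no detection call, and 2408 genes had a mean under 4. At such levels true differences tend to be compressed while measured ones scatter more, and an interval says less.

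Arrays of different times correlated over the same range as arrays of the same time. Over genes, and leaving out D4, pairs of arrays of the same time correlated at r from 0.99495 to 0.99690 (9 pairs), and pairs of a 1 h with a 24 h array at 0.99453 to 0.99712 (9 pairs). These are descriptions across genes, which are not independent replicates, and pairs share arrays.

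Markers of the labelled cell type were read at every time. Of 9 hepatocyte and HepG2 markers 7 were measured: albumin (ALB), alpha-fetoprotein (AFP), APOA1, APOA2, TTR, FGB and GPC3. Their means over the 10 arrays ran from 8.73 to 12.4, and 0 were called between 24 h and 1 h. Of 8 stellate cell and fibroblast markers 4 were measured, and 3 of those had a mean under 5, with decorin (DCN) at 2.19 to 2.47 on every array. Of 6 endothelial markers 5 were measured and 3 had a mean under 5. Of 10 leukocyte markers 5 were measured and 2 had a mean under 5, the lowest at 3.79. The others included LYZ, the gene of lysozyme, at 12.03 to 12.33 and CD68, a lysosomal membrane protein gene, at 9.44 to 9.68. Of 5 cholangiocyte markers 4 were measured, with means from 4.93 to 10.9, the lowest being KRT7. A probe set's level depends on its probes, so levels of different genes are not a scale of abundance. The erythroid markers were not measured, and 0 members of any marker list were called. Where a marker differs in bulk RNA, fewer cells of a type and less RNA per cell cannot be told apart.

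Since no gene passed, the genes named from here on, other than the panel of tribbles, lipid and liver genes, were chosen after their values were seen, and none of their differences is a call. Gene lists were chosen with earlier results of these data known, so their counts and medians are descriptions alone. The HIF target list had the highest median of all lists, and its member DDIT4 had the highest 24 h minus 1 h value of all genes. The promoters of DDIT4 and ANKRD37, the members of that list with the highest 24 h minus 1 h values, are shown with a form of the HIF core motif, ACGTG. Only this form was searched for. Each run is the 250 bases before the RefSeq gene start on the plus strand of GRCh38.p14, and capitals mark ACGTG or its reverse complement CACGT, with overlapping matches joined.
DDIT4, chr10:72273674-72273923: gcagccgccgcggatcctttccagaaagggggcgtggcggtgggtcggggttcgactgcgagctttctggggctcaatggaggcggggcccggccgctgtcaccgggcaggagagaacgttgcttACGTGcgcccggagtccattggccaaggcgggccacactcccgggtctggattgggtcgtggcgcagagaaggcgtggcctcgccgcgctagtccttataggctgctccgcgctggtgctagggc
ANKRD37, chr4:185396591-185396840: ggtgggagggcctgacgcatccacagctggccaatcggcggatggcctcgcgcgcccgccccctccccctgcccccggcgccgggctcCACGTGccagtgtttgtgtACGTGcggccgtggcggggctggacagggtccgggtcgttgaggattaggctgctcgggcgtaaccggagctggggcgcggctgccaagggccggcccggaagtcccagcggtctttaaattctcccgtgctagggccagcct
The DDIT4 stretch held 1 such run, which began 125 bases before the gene start. The ANKRD37 stretch held 2, beginning 162 and 143 bases before the start, and the first of them is the palindrome CACGTG, in which the motif overlaps itself on both strands. Either strand of ACGTG was found in 6501 of 35116 promoters of this length (18.5%). A match of letters is not evidence of binding.

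DDIT4 lies on chromosome 10 and is induced by low oxygen, ATF4 and glucocorticoids. Its levels at 1 h were 7.73, 7.61 and 7.62. At 6 h they were 8.26, 8.40 and 8.44, with D4 at 8.77, and at 24 h they were 8.18, 8.27 and 8.51. Every 6 h and every 24 h array was above every 1 h array, which held for 3.59% of all genes at 6 h (6.42% without D4) and 6.23% at 24 h, and the 6 h and 24 h arrays overlapped. The 24 h minus 1 h difference was 0.67 (SE 0.13, 95% interval 0.38 to 0.96), a fold of 1.59 (1.30 to 1.94). Its adjusted p in limma was 1, and 0.235 without D4. The 6 h minus 1 h difference was 0.81 (adjusted p 0.43 in limma), or 0.71 without D4 (adjusted p 0.125). Over the alternative settings at gene level that difference ran from 0.68 to 0.88 with an adjusted p in limma from 0.00138 to 0.987. It passed in 2 of them: with arrays weighted by their quality (adjusted p 0.0428) and with the position letter as a random block (adjusted p 0.00138). The second was not passed once D4 was left out as well (adjusted p 0.0975). An exact permutation test on 2 sides gave p = 0.1 for 24 h against 1 h and p = 0.0571 for 6 h against 1 h, in both cases the smallest p these group sizes allow.

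ANKRD37, an ankyrin repeat gene induced by HIF, showed the second highest value among the HIF targets. It stood at 5.59, 5.62 and 5.56 at 1 h, at 5.79, 5.93 and 5.85 at 6 h with D4 at 6.01, and at 5.85, 5.95 and 6.24 at 24 h. The later arrays all lay above the 1 h arrays, and the 24 h minus 1 h difference was 0.42 (SE 0.11, interval 0.18 to 0.66; limma adjusted p 1). ADM, which encodes the vessel-widening peptide adrenomedullin, was at 6.26, 6.25 and 5.83 at 1 h and 6.40, 6.42 and 6.50 at 24 h. Its difference was 0.33 (SE 0.13, interval 0.05 to 0.61), and without the third 1 h array, the lowest, it was 0.19.

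**Figure D2:**
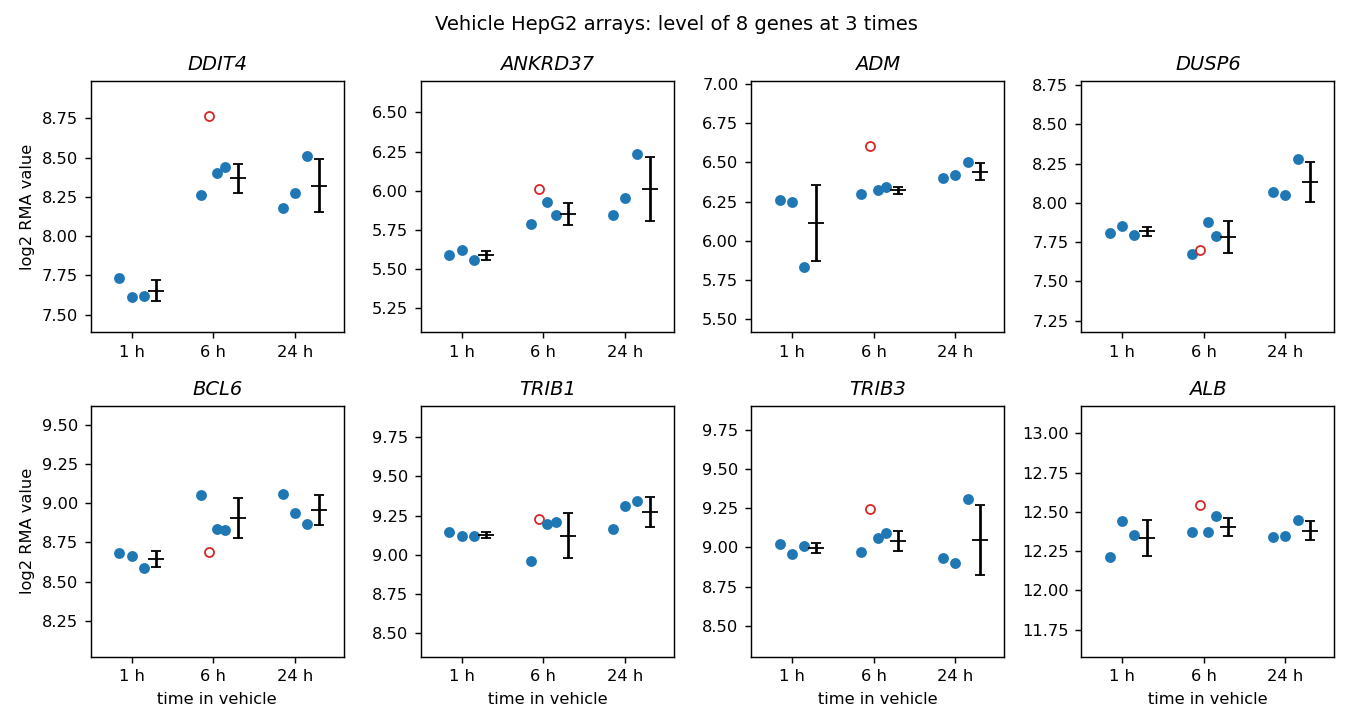
Log2 RMA level of 8 genes on each vehicle array at 1, 6 and 24 h; filled points are arrays, the open red point is the 6 h array D4, and black bars are the mean ± SD of each time with D4 left out at 6 h. DDIT4 and ANKRD37 lie higher on every 6 h and 24 h array than on every 1 h array, DUSP6 lies higher on the 24 h arrays alone, and TRIB3 and ALB overlap between times; axes do not start at 0 and differ in level but share a span.

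The rest of the HIF list was closer to no difference. Of 28 genes fixed 19 were measured, and 16 of those were higher at 24 h by value, as were 56.0% of all genes. On 8 of 19 every 24 h array lay above every 1 h array, and on 0 below, where 6.23% of all genes lay above and 3.35% below. The list's median difference was 0.14, against 0.01 over all genes, and it was 0.09 to 0.18 with 1 array left out, lowest without the third 24 h array. The median at 6 h without D4 was 0.12, with 7 members all above 1 h and 0 below, against 6.42% and 2.9% of all genes. Of other HIF targets, NDRG1 and LOX differed by 0.22 each, and BNIP3, a mitophagy receptor, by 0.19. KDM3A, a histone demethylase, differed by 0.16 and HILPDA, a lipid droplet protein, by 0.14. VEGFA, the vascular growth factor, was at 8.08 to 8.19 at 1 h and 8.12 to 8.14 at 24 h, a difference of -0.01 (interval -0.18 to 0.17), while EGLN1, an oxygen-sensing hydroxylase, differed by -0.06. Within the list VEGFA and EGLN1 stood near 0 while DDIT4 and ANKRD37 stood highest. Glycolysis genes, which HIF also controls, had a median of 0.04 over 9 measured of 24 fixed.

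**Figure D3:**
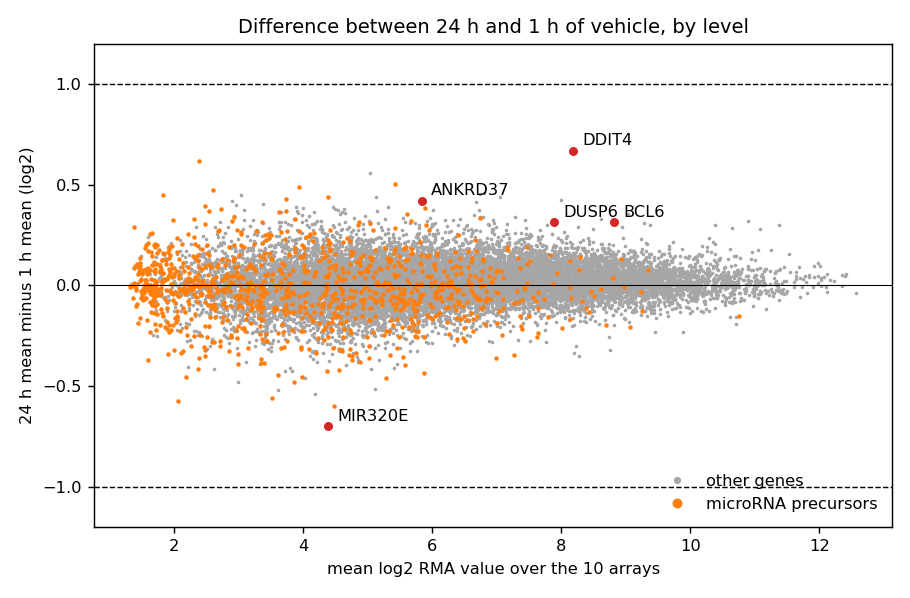
Each point is 1 of 14884 genes, with the mean log2 RMA level over the 10 arrays on the horizontal axis and the 24 h minus 1 h difference of means (log2) on the vertical axis; microRNA precursors are orange, 5 named genes red, and dashed lines mark a 2-fold difference. No point reaches a dashed line, and differences widen toward low levels, where most microRNA precursors lie.

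Growth-signal genes showed small values in both directions. The immediate-early and feedback list had 31 of 40 genes measured, a median of 0.08 at 24 h, and 8 members all above and 0 all below, against 6.23% and 3.35% of all genes. With 1 array left out the median was 0.05 to 0.11, lowest without the third 24 h array. At 6 h without D4 it was 0.00, with 1 above and 4 below, against 6.42% and 2.9% of all genes. DUSP6, a phosphatase that ERK induces and that switches ERK off, was at 7.81, 7.85 and 7.79 at 1 h and at 8.07, 8.05 and 8.28 at 24 h. Its 6 h arrays, at 7.67, 7.88 and 7.79 with D4 at 7.70, overlapped the 1 h arrays and lay below all 24 h arrays, as held for 1.32% of all genes (3.81% without D4). The 24 h minus 1 h difference was 0.32 (SE 0.10, interval 0.10 to 0.53; limma adjusted p 1). SPRY2, another brake on this pathway, differed by 0.25 and its groups overlapped. EGR1, the serum-induced transcription factor, was lower by value, at 8.34, 8.43 and 8.43 at 1 h and 7.77, 8.19 and 8.34 at 24 h (difference -0.30, interval -0.64 to 0.04). That difference was -0.14 without the first 24 h array, -0.12 when its probe sets were averaged and -0.06 with the position letter as a fixed term. FOS and MYC differed by -0.04 each. Feedback inhibitors and first-wave factors did not all lie on 1 side.

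Fasting-type and heat shock genes had list medians below that of the HIF targets and above that of the growth-signal genes. The fasting and FOXO list had a median of 0.11 over 17 of 24 genes, with 5 members above and 1 below, against 6.23% and 3.35% of all genes, and a median of 0.07 to 0.14 with 1 array left out, lowest without the second 1 h array. BCL6, a repressor that FOXO factors induce, differed by 0.31 (interval 0.08 to 0.54), and IGFBP1, a secreted binding protein for insulin-like growth factors that insulin represses, by 0.30 (interval -0.07 to 0.67). The gluconeogenic enzyme gene PCK1 differed by 0.13 and TAT by 0.00, both with intervals that held 0. The heat shock list had a median of 0.12 over 12 of 24 genes, with 3 above and 0 below, against 6.23% and 3.35% of all genes. Its median was 0.06 to 0.14 with 1 array left out, lowest without the third 1 h array. The co-chaperone BAG3 led it at 0.18, with HSPA1B at 0.17. HSPA1A and HSPA1B are near-identical copies whose probe sets may read each other.

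Among ATF4 and p53 targets a few members stood out from the rest. In the amino acid and integrated stress list 31 of 49 genes were measured, the median was 0.04 (0.00 to 0.07 with 1 array left out, lowest without the third 1 h array), and 4 lay above and 0 below, against 6.23% and 3.35% of all genes. DDIT4 headed it, and the next were SESN2, which restrains mTORC1 when leucine is short, at 0.25 (interval 0.01 to 0.48) and DDIT3, the stress factor CHOP, at 0.23 (interval 0.01 to 0.46). Enzymes of the same program lay close to 0: asparagine synthetase, ASNS, differed by 0.00, PSAT1 by -0.03 and PHGDH, which starts serine synthesis, by -0.13. ATF4 itself differed by 0.05 and TRIB3, its feedback inhibitor, by 0.05. The p53 list had a median of 0.07 over 16 of 27 genes, and GDF15, a secreted stress hormone, led it at 0.28 (SE 0.13, with an interval that held 0).

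Genes of glucose sensing were the lowest list. Its median was -0.04 over 11 of 17 genes, with 0 members all above and 3 below, against 6.23% and 3.35% of all genes, and -0.10 to -0.02 with 1 array left out, lowest without the second 1 h array. GCKR, the regulator of glucokinase, was at 6.74, 6.70 and 6.77 at 1 h and 6.52, 6.52 and 6.42 at 24 h, a difference of -0.25 (interval -0.49 to -0.01). TXNIP, which glucose induces through MondoA and ChREBP, differed by -0.17 (interval -0.54 to 0.19), with 24 h arrays at 8.07 to 8.14 below the 1 h arrays at 8.25 to 8.34. MLXIPL, which encodes ChREBP, differed by -0.15. ARRDC4, another gene induced through the same factors, differed by 0.02 and its groups overlapped.

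Proliferation genes had small differences. The mitosis list had 60 of 72 genes measured and a median of 0.04, with 10 above and 0 below, against 6.23% and 3.35% of all genes. Its median was 0.01 to 0.06 with 1 array left out, lowest without the third 1 h array. PLK1, a mitotic kinase, differed by 0.07, CCNB1 by 0.07, TOP2A by 0.00 and the proliferation marker MKI67 by -0.08. DNA replication genes had a median of -0.01 over 32 of 54, with 0 above and 2 below, against 6.23% and 3.35% of all genes. The helicase gene MCM2 differed by 0.03 and PCNA by 0.05. Ribosome biogenesis genes had a median of 0.02 over 28 of 43.

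Lipid synthesis and clock lists had medians within 0.1 of 0. Cholesterol synthesis and uptake genes had a median of -0.01 over 19 of 30, with 0 above and 0 below, against 6.23% and 3.35% of all genes. HMGCS1, an early enzyme of the pathway, was at 9.44 to 9.50 at 1 h and 9.34 to 9.48 at 24 h (difference -0.09, interval -0.29 to 0.12). Fatty acid synthesis genes had a median of 0.03 over 21 of 25, with FASN at 0.04 and SCD at 0.06. Circadian clock genes had a median of 0.02 over 13 of 25, with BMAL1 at 0.12, PER2 at -0.04 and CRY1 at -0.02. Drug and xenobiotic metabolism genes had a median of 0.10 over only 7 of 45, with 0 above and 1 below, against 6.23% and 3.35% of all genes. Their median was 0.04 to 0.18 with 1 array left out. Hepatocyte transcription factors had a median of 0.10 over 13 of 26, with 3 above and 0 below, against 6.23% and 3.35% of all genes. That median was 0.06 to 0.11 with 1 array left out, lowest without the second 24 h array, and FOXA3, a pioneer factor of liver genes, was the highest at 0.25 (interval -0.05 to 0.55).

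Metallothionein and metal handling genes had a higher median difference from 1 h at 6 h than at 24 h by value, which was not tested. These small proteins bind zinc and copper, and metals and glucocorticoids induce them. Of 25 genes fixed 12 were measured. Between 24 h and 1 h the median was 0.05 with 0 above and 0 below, against 6.23% and 3.35% of all genes. Between 6 h and 1 h the median was 0.14 (0.12 without D4), and 5 of 12 lay above and 0 below, with D4 or without it. Of all genes 3.59% lay above with D4, and without it 6.42% lay above and 2.9% below. MT1G read 7.15, 6.96 and 7.04 at 1 h, 7.71, 7.21 and 7.46 at 6 h with D4 at 7.41, and 7.19, 6.91 and 7.33 at 24 h. Its 6 h arrays lay above its 1 h arrays and overlapped its 24 h arrays, with a 6 h minus 1 h difference of 0.41 without D4 (interval 0.12 to 0.70). MT1F differed by 0.36 and MT1X by 0.29 in the same fit, while MT2A differed by 0.01, and 0 members were called. Members of this family are near-identical and may be read by each other's probe sets. A higher median at 6 h than at 24 h was not particular to this list. It was also seen for respiratory chain, glycolysis and fatty acid synthesis genes, and the reverse for the growth-signal and fasting lists. Of the hepatocyte transcription factors 7 of 13 lay above 1 h at 6 h without D4, and 0 below. Time and position letter cannot be told apart at 6 h.

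Over all lists, 615 of the 1098 genes fixed were measured, in 35 of 36 lists, and 0 were called. List medians ran from -0.04 to 0.14, and 32 of 35 lay within 0.1 of 0. An unadjusted p under 0.05 was found for 11 members (1.79%), a total near the 1.64% of all genes, though all of the 11 but GCKR were higher at 24 h. They were DDIT4, ANKRD37, ADM, BCL6, DUSP6, IER3, FOSL1, SESN2, DDIT3 and IFIT5 on the high side, where 0.873% of all genes lay, and GCKR on the low side, where 0.766% lay. Without D4 there were 38 members (6.18%), against 4.45% of all genes, 31 higher (2.73% of all genes) and 7 lower (1.72%), and the lower ones were EGR1, MYLIP, MLXIPL, GCKR, DERL3, ADH6 and RBL1. The 95% interval excluded a 1.5-fold difference for 584 of the 615, and for 612 without D4. Lists share members, and their medians are not independent.

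**Figure D4:**
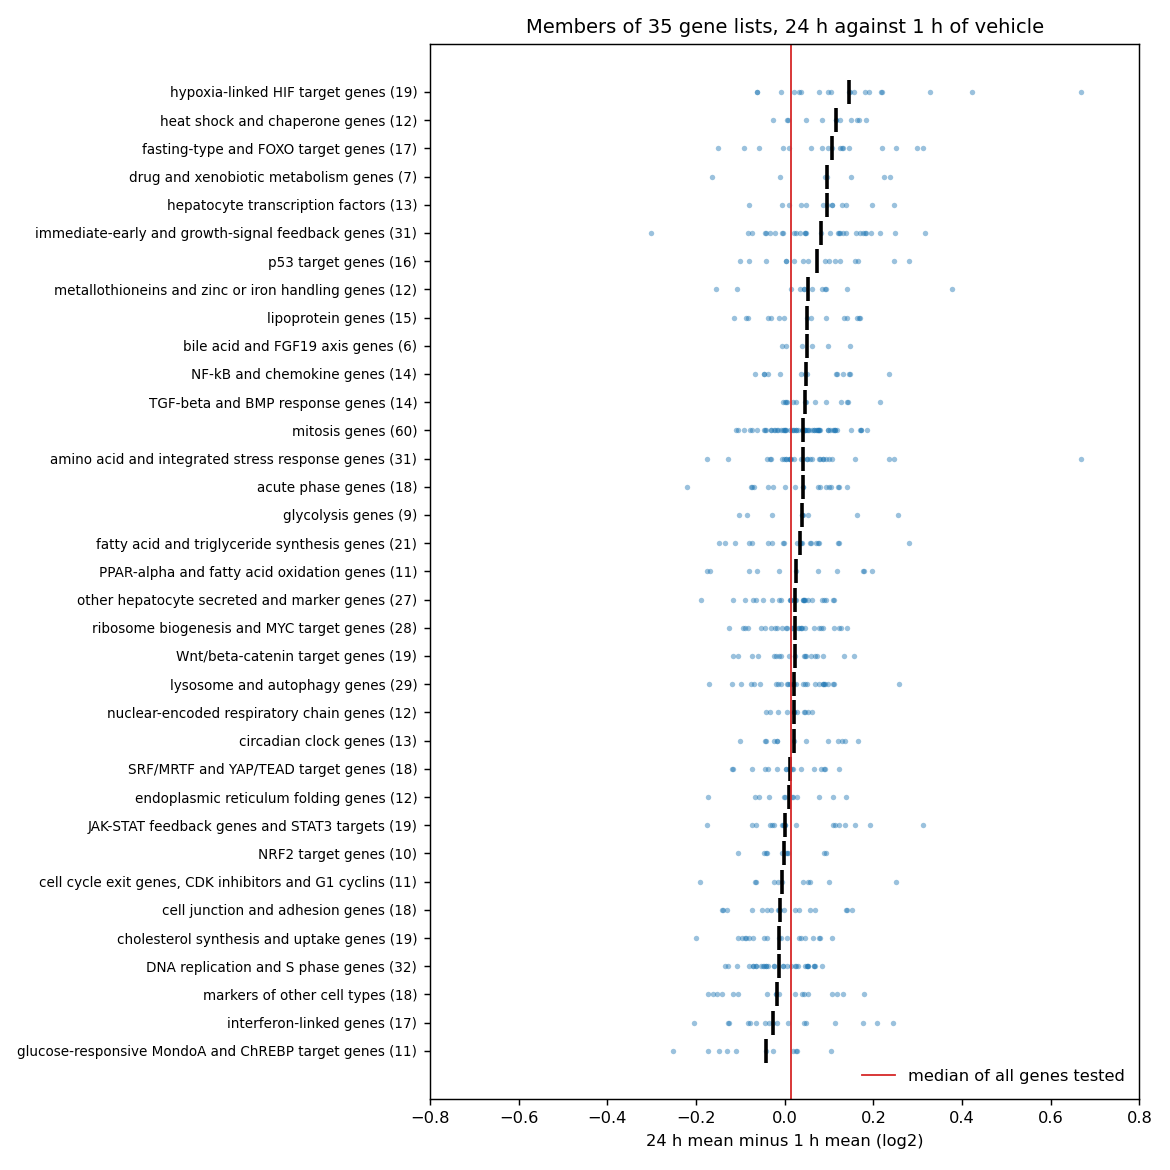
Each blue point is a measured member of a gene list (number measured in brackets), placed by its 24 h minus 1 h difference of means (log2); black ticks are list medians and the red line is the median of all genes, at 0.01. The HIF target list has the highest median, 0.14, and DDIT4 stands alone at 0.67 in that list and in the integrated stress list.

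The panel of tribbles, lipid and liver genes differed little. TRIB1, the pseudokinase gene named in the title of the study and known for its effect on liver lipids, was at 9.15, 9.12 and 9.12 at 1 h, at 8.96, 9.20 and 9.21 at 6 h with D4 at 9.23, and at 9.17, 9.31 and 9.34 at 24 h. Its 24 h arrays all lay above its 1 h arrays, by 0.14 (SE 0.10, interval -0.07 to 0.36), a fold of 1.10 (0.95 to 1.28). Its limma adjusted p was 1, and the 6 h minus 1 h difference was 0.02 with D4 and -0.01 without. TRIB2 differed by 0.09 and TRIB3 by 0.05 between 24 h and 1 h, and the groups of both overlapped. Without the third 24 h array both turned sign, to -0.03 and -0.08. APOB, the structural protein of very low density lipoprotein, differed by -0.04 (interval -0.23 to 0.15). MTTP, which loads lipid onto it, differed by -0.03 (interval -0.55 to 0.49), an interval widened by D4, where it read 7.96 against 8.95 to 9.08 on the other 6 h arrays. ALB differed by 0.05, AFP by 0.04 and GAPDH by 0.04. The signs of APOB, MTTP, ALB and GAPDH also turned when an array was left out.

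**Figure D5:**
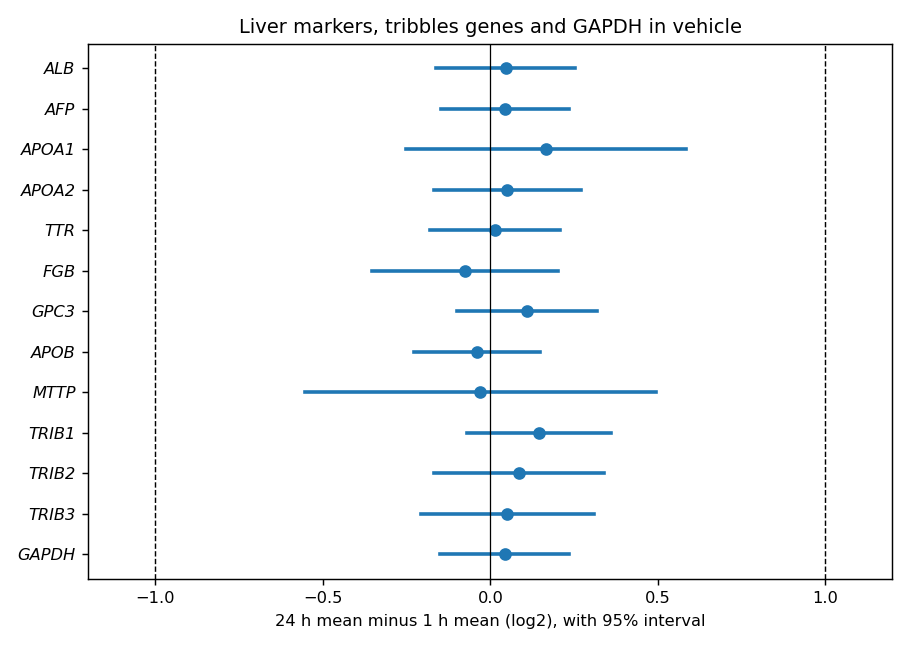
Points are the 24 h minus 1 h difference of means (log2) of 13 liver marker, tribbles and control genes, lines are 95% intervals from the fit, and dashed lines mark a 2-fold difference. All 13 intervals hold 0 and none reaches 2-fold; that of MTTP is the widest, at -0.55 to 0.49.

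The 6 h arrays were placed between the other times for genes at an unadjusted p under 0.05 in the 24 h against 1 h comparison, since no gene passed the adjusted threshold on which placing was to rest. Of these 244 genes, the 6 h mean lay between the 1 h and 24 h means for 199 (81.6%), beyond the 1 h mean for 18 and beyond the 24 h mean for 27. With D4 left out of the 6 h mean the count was 204 (83.6%). When D4 was left out of the fit too, 526 of 662 genes (79.5%) lay between. Over all genes the share was 25.3%, or 35.2% without D4. Choosing genes by a wide gap between 1 h and 24 h leaves more room between them, so these shares only describe the chosen genes. The 6 h mean was nearer the 24 h mean than the 1 h mean for 137 of the 244 (56.1%), near the 54.5% of all genes. With D4 left out of the 6 h mean these shares were 59.0% and 52.0%. DDIT4 at 6 h lay beyond 24 h and DUSP6 beyond 1 h, while ANKRD37 lay between.

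The largest differences by size were mostly outside the coding genes. Among the 100 largest 24 h minus 1 h differences 41 were microRNA precursors, which make up 7.20% of all genes, and 35 were protein-coding. The precursors had a median level of 3.86 and a median residual SD of 0.205, against 6.50 and 0.151 for protein-coding genes, and 555 of 1072 precursors against 1308 of 11916 coding genes lay under a level of 4. The part of low signal in their rank was not tested. The largest difference of all was that of MIR320E, at -0.70 (SE 0.24, interval -1.22 to -0.18; limma adjusted p 1). The mature forms of its family are shown because the members do not all share a seed, the stretch (bases 2 to 8, in capitals) that pairs with targets. They come from RefSeq, in which all 7 measured precursors were found. MIR320B1 and MIR320B2 share a mature sequence, as do the C pair and the D pair.
miR-320b: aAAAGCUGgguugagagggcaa
miR-320c: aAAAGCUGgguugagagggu
miR-320d: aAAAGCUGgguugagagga
miR-320e: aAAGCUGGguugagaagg
The first 3 share the seed AAAGCUG and miR-320e has AAGCUGG. The probe sets detect the precursor or its host transcript, so none of the values is a level of these mature forms.

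The family's precursors did not differ in 1 direction. MIR320E, on chromosome 19, read 4.48, 4.81 and 4.78 at 1 h, 4.35, 4.04 and 4.30 at 6 h with D4 at 5.14, and 3.998, 4.27 and 3.71 at 24 h. All its 24 h arrays lay below its 1 h arrays. MIR320C1, on chromosome 18, read 4.69, 4.59 and 4.58 at 1 h, 4.97, 4.95 and 4.99 at 6 h with D4 at 5.07, and 4.84, 4.84 and 5.11 at 24 h. All its later arrays lay above its 1 h arrays, with a 24 h minus 1 h difference of 0.31 (SE 0.10). MIR320C2, which has the same mature sequence, differed by 0.28, while MIR320B2 differed by -0.32, MIR320D1 by -0.24, MIR320D2 by -0.25 and MIR320B1 by -0.20. Near-identical copies may be read by each other's probe sets.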

How the data were processed

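Transcript levels were measured on Affymetrix whole-transcript arrays of total RNA. The authors deposited log2 values, for which the submitters' processing notes name the RMA method and the oligo package. Software versions and the probe sets' genome build were not given in the sources used here. On the vehicle arrays values ran from 0.948 to 13.7 over 53617 probe sets, with array medians of 4.89 to 4.94. The platform table named 16098 probe sets with 1 gene, 0 with several, and left 37519 unnamed here. All 16098 identifiers were found in the RefSeq table. For 779 genes with several probe sets the highest mean was kept, which left 14884 genes with no filter on level. Arrays have no read depth, and their number limits the precision.

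One limma 3.58.1 model (R 4.3.3) covered the 10 arrays and gave each time its mean, moderated by empirical Bayes (prior degrees of freedom 4.68, total 11.7), and p-values on 2 sides were adjusted by Benjamini-Hochberg over all genes at 0.05. The fit was tested on simulated data. Members and gene lists were chosen with earlier results of these data known. The rule for named genes took the largest differences past the threshold whose arrays did not overlap, and the panel. As none passed, it named the panel alone. Columns of no sample numbered 0. Alternatives were a filter on dim genes, centring, quantile normalization, trend and robust moderation, array weights, fits of 2 groups, the mean of probe sets, the position letter as fixed or random term, and each array left out. Added after seeing the data were the F test, all probe sets, the letter as a random block without D4, and placing the 6 h arrays by genes at an unadjusted p under 0.05. Lists are described by counts and medians with no set test, and of 53 histone genes fixed as a list 0 were measured.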

Additional observations from a re-analysis of the deposited data

Results flagged for a closer look

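The mean correlation of the 6 h array D4 with the other 9 arrays was 0.977, far below that of the other 6 h arrays.

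Among 33 genes looked at for such an array, 5 had a 6 h array that stood apart from the other 3 by Dixon's 95% criterion, and 3 of these were D4. Chance flags about 1 in 20 groups. Over all genes D4 stood apart in 11.8%, and each of the other 6 h arrays in 0.544% to 0.679%, so such flags are not particular to these genes. D4 read 6.60 for ADM (the others 6.30 to 6.34), 9.23 for MLXIPL (8.78 to 8.85) and 7.96 for MTTP (8.95 to 9.08). The first 6 h array read 8.96 for TRIB1 (the others 9.20 to 9.23) and 11.97 for AFP (11.80 to 11.81). The 24 h minus 1 h differences of these genes do not use the 6 h levels, but their standard errors do.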

How the results depend on the processing

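The count of 0 genes between 24 h and 1 h held in all 22 alternatives, and that between 24 h and 6 h in all 21. Between 6 h and 1 h it was 0 in 19 of 21. Array weights gave 1 gene, DDIT4, and the position letter as a random block gave 349 (block correlation -0.24), or 0 with D4 left out as well (-0.03), a pairing of settings added after seeing the data; the cause was not tested. With each array left out in turn the count was 0 to 0 in all 3 comparisons. Unadjusted counts then ran from 152 (without the third 1 h array) to 662 (without D4) for 24 h against 1 h, from 251 (without the third 1 h array) to 813 (without the third 6 h array) for 6 h against 1 h, and from 222 (without the second 24 h array) to 624 (without the third 6 h array) for 24 h against 6 h. All deposited probe sets gave 0, with 1099, 1750 and 1535 unadjusted. The letter as a fixed term left the third 24 h array alone to carry the 24 h against 1 h difference, and could not be fitted for the 6 h arrays. Of 692 recomputed gene values 674 lay within 1 standard error of the value reported, 16 moved further, and the 2 others were DDIT4 at 6 h, newly called. Among them 12 values in 7 genes lost or turned their sign, none of them called. Many of the 692 values could not move, so the share within 1 standard error is no measure of stability. Trend and robust moderation, fits of 2 groups and leaving out an array of the time not compared do not alter a difference of means. Nor does the mean of probe sets for a gene with 1 probe set. The filter on dim genes left out ANKRD37, DDIT3, TRIB2, MIR320E and MIR320C1, which have no value under it. No paired analysis was possible because the labels give the arrays no replicate numbers. With 3 or 4 arrays a time, small differences and those of dim genes could not be told from the spread.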
